A study of Drosophila melanogaster with 13 samples.

Results

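MSL3 was listed at 217 stretches of the male X chromosome that held no peak of MSL1 or MSL2, and it was still listed there after MLE had lost the part that binds CLAMP. These 217 peaks were chosen from 1030 MSL3 peaks on X in flies with full-length MLE, called MLEwt here as in the sample labels. A member had to share no base with any MSL1 or MSL2 peak of MLEwt, and at least 1 base with an MSL3 peak of flies whose MLE lacked that part, called MLEdel. Of the 1030 peaks, 818 met the first condition, and 217 of these 818 met both (26.5%, 95% Wilson interval 23.6 to 29.7). The other 601 had no MSL3 peak in MLEdel and are called lost peaks below. In all, the 6 lists of the series held 6400 peaks.

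The chromatin came from whole adult males 2 to 3 days old. Flies of both lines were y1 w1118 and homozygous for mle9, a null allele, so the only MLE in either line was a FLAG-tagged protein made from a transgene at 86Fb on chromosome 3. The broadly active Ubi-p63E promoter drove the transgene in both. MLEwt males carried 1 copy of full-length Ubi:mleWT-FLAG over the balancer TM6, whereas MLEdel males were homozygous for Ubi:mleΔCBD-FLAG, which lacks the CLAMP-binding domain. Deletion, number of transgene copies and balancer therefore cannot be told apart. In the study's immunoblots the MLE proteins of these lines were at similar levels, and MSL1 and MSL2 did not differ significantly. Antibodies against MSL1, MSL2 and MSL3 gave 2 libraries each per line, and each pair of libraries was reduced to 1 list of peaks. Each list holds p-values of 2 peak sets, and the sources used here do not say whether these are the replicates. No replicate error or test between the lines is therefore given. At the members, −log10 p of the second set was a median of 1.02 times that of the first in MLEwt (interquartile range 0.931 to 1.12) and 1.01 times at their strongest peaks in MLEdel (0.868 to 1.19). In chromatin of whole flies, lower binding in every cell and binding in fewer cells cannot be told apart. No cell type can be checked in such lists.

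In Drosophila, males raise transcription from their single X chromosome with the MSL complex. MSL2, a protein made only in males, and the scaffold protein MSL1 recognise entry sites on X with the help of CLAMP, a zinc-finger protein that binds GA repeats. MSL3 has a chromodomain, carries the complex over the bodies of transcribed genes where histone H3 is methylated, and is most abundant toward their 3′ ends. MOF acetylates histone H4, and MLE is a helicase that remodels the roX RNAs so that they can join the complex.

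The sequences of 9 members are shown because the results below turn on where in a gene they lie and which motifs they hold. For each, the dm6 reference around the summit (the base with the highest MSL3 pileup in MLEwt) is written from the plus strand, with a shorter window for the first 4. Capitals mark any match, on either strand, to a GA repeat (GAGAGAGA), a CA repeat (CACACACA), the DNA replication-related element (DRE, TATCGATA), the core of promoter Motif 1 (GGTCACAC) and the word CGATA. The first 3 are the kept peaks with the highest enrichment in MLEwt. The Hr4 intron had the highest enrichment in MLEdel. The lncRNA:CR44619 window is the one member with a GA repeat within 100 bp of its summit, and the last 4 hold the Motif 1 core. The windows of Hr4 and of the last 4 were chosen after their values were seen.
Upstream of Rala, chrX:3719769-3719869: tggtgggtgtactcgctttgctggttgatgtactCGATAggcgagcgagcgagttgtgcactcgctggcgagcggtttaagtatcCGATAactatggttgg
Coding exon of g, chrX:13729465-13729565: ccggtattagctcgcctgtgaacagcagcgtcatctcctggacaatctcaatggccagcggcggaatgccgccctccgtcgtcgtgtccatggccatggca
Intron of sw, chrX:20235438-20235538: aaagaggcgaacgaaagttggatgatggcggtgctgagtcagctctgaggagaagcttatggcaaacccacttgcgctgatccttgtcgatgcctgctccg
Intron of Hr4, chrX:1953087-1953187: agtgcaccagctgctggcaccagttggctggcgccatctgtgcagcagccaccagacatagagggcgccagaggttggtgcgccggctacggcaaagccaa
Exon of lncRNA:CR44619, chrX:12753995-12754195: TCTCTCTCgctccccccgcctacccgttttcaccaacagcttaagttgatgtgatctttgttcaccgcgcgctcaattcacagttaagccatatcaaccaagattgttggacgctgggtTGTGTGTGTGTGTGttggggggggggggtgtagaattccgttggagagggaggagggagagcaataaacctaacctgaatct
Intergenic, nearest start cib, chrX:4105804-4106004: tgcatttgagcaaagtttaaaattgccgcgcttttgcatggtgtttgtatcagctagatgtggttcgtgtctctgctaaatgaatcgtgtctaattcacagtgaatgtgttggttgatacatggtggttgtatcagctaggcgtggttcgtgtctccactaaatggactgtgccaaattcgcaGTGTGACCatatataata
Upstream of N, chrX:3134666-3134866: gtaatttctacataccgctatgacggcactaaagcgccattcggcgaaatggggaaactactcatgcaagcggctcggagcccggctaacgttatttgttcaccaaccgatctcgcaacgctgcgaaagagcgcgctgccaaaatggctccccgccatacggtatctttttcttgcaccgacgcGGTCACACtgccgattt
Upstream of Sxl, chrX:7098076-7098276: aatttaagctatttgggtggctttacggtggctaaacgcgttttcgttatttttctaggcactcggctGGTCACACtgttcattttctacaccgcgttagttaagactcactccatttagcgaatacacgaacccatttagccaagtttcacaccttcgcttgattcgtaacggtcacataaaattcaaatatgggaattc
Upstream of Top1, chrX:15319305-15319505: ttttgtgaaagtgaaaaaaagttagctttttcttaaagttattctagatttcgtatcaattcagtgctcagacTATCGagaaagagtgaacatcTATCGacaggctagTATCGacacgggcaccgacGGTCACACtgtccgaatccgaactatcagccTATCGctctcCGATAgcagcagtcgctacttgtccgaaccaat

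The lists differed in size, which bears on what a missing peak means. MSL3 had 2915 peaks in MLEwt and 2301 in MLEdel, against 92 to 577 for the lists of MSL1 and MSL2. Fold enrichment is the fragment pileup at the summit over the expected background, with 1 added to both. With the listed p-values it gave a whole number of fragments in all 6400 peaks, so the count behind each value is known. On X the background was at least 42.8 fragments for MSL3 in MLEwt and 44.5 in MLEdel. The lowest MSL3 peak on X had a fold enrichment of 2.21 in MLEwt and 1.74 in MLEdel. No listed MSL3 peak had fewer than 96 fragments in MLEwt or 94 in MLEdel, so the 1.74 belongs to a background above 44.5. The lowest MLEdel value among the members was 2.11. Binding below such limits would not be listed. The absence of an MSL1 or MSL2 peak likewise means only that none was listed, with 247 MSL1 and 216 MSL2 peaks on X in MLEwt.

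Of all 1030 X MSL3 peaks of MLEwt, 40.3% overlapped an MSL3 peak of MLEdel. All members do so by the rule, and nothing can be read from that. Among the MSL3 peaks that shared bases with MSL1 or MSL2, 198 of 212 were kept (93.4%, 89.2 to 96.0). In MLEwt the 217 members had a median width of 2599 bp (interquartile range 915 to 4723, range 233 to 14222) and a median fold enrichment of 7.18 (interquartile range 4.08 to 9.94, range 2.21 to 15.96). The lost peaks had a median of 3.76, and the kept peaks with MSL1 or MSL2 a median of 16.96. Members thus lay between the other groups of X peaks in strength. In MLEdel the strongest MSL3 peak inside a member had a median fold enrichment of 2.81, with a range of 2.11 to 25.9.

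Some peaks lay near the limits of the rule, as measured in bp. Among the members with the smallest overlaps with MLEdel MSL3 were one over CG5445, with 216 bp, and one at the start of CG8611, with 227 bp. The CG8611 peak was itself short, and the overlap was 92.3% of its 246 bp. The lost peaks closest to an MLEdel MSL3 peak lay 228 bp away at Naxe, 341 bp at Trf2, which encodes a TBP-related factor, and 354 bp at CG9902. At the other limit, members over Paics, Tlk and Arp10 lay 370, 475 and 480 bp from the nearest MSL1 or MSL2 peak. Peaks over Tob and ben were left out because they shared 201 and 211 bp with one.

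Among the members, which are all listed in MLEdel by the rule, gene-body peaks were mostly weaker there. Peaks at promoters and elsewhere were mostly stronger. Of the 217 summits, 153 lay inside a protein-coding gene away from any start (70.5%), 44 within 200 bp of a transcription start (20.3%) and 20 elsewhere (9.22%). The median ratio of MLEdel to MLEwt fold enrichment was 0.315 in gene bodies (95% interval over peaks 0.292 to 0.330), 1.28 at promoters (1.16 to 1.57) and 1.48 elsewhere (1.27 to 1.76). The MLEdel value is that of the strongest overlapping peak, whose summit can lie elsewhere in the member. That summit was within 250 bp in 107 gene-body members, 42 promoter members and all 20 others. Their median ratios were 0.309, 1.34 and 1.48. Fold enrichment was higher in MLEdel at 14 of 153 gene-body members, at 30 of 44 promoter members and at 18 of 20 of the rest. These ratios come from the contrast that chose the members and are given as a description. The 542 gene-body, 49 promoter and 10 other lost peaks have no ratio, so falls below the limit of the MLEdel list are left out. The classes were defined with earlier results known. The intervals cover the number of peaks, and neighbouring peaks are not independent.

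**Figure D1:**
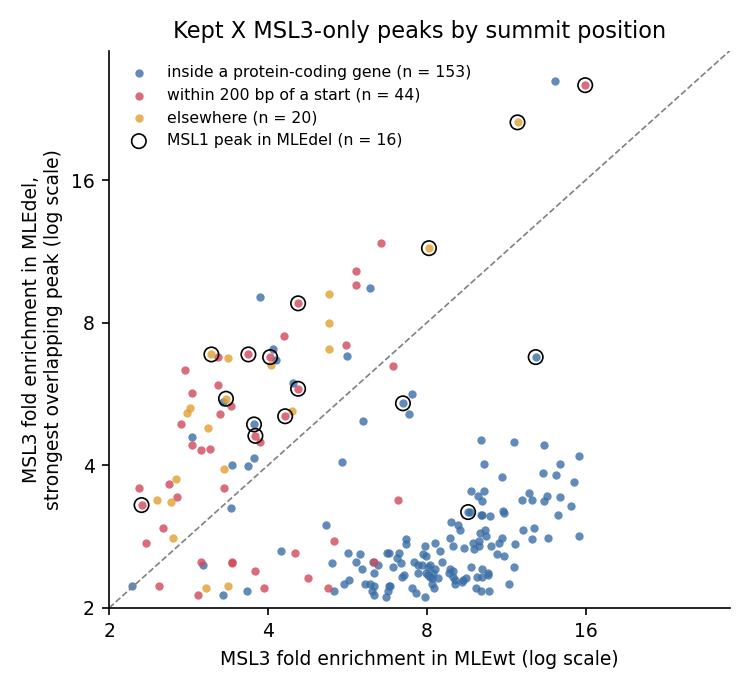
MSL3 fold enrichment at the summit of each of the 217 kept peaks in MLEwt (horizontal axis, log scale) against that of the strongest overlapping MLEdel peak (vertical axis, log scale), coloured by summit position, with a line of equality and rings around the 16 members that had an MSL1 peak in MLEdel. Most gene-body points lie below the line, and 30 of 44 promoter points and 18 of 20 points elsewhere lie above it.

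The same ratios were also cut at a fold threshold, which is no separate evidence. At 34 of 217 members fold enrichment was at least 1.5 times higher in MLEdel (15.7%), against 18.1% of all kept MSL3 peaks on X and autosomes and 8.19% of those on X, where the members are the only kept peaks that passed it. At 141 of 217 it was at least 1.5 times lower (65.0%), against 32.2% of all kept peaks and 80.2% of those on X. The share was 192 of 198 in kept X peaks with MSL1 or MSL2 (97.0%, 93.5 to 98.6), above the members' share. The lower ones comprised 132 gene-body members, 8 promoter members and 1 elsewhere, and the higher ones 7, 17 and 10. The counting interval of the ratio lay wholly below 1 at 137 of 153 gene-body members and wholly above 1 at 23 of 44 promoter members and 14 of 20 of the others. Such an interval covers counting error in the fragments of the first peak set, not the spread between flies.

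Gene-body members were broad domains over coding sequence. Their median width was 3745 bp and their median fold enrichment was 8.48 in MLEwt and 2.64 in MLEdel. The strongest was over g, which encodes a subunit of the AP-3 adaptor complex (chrX:13727122-13734750). At its summit MLEwt had 681 fragments, a fold enrichment of 15.6, and MLEdel had 128 fragments, a fold enrichment of 2.83. Its ratio of 0.182 (counting interval 0.149 to 0.219) was the lowest of all 217 members. The peak over sw, a dynein intermediate chain gene, also had 681 fragments in MLEwt, with 189 in MLEdel, a ratio of 0.268. Over Spx, a splicing factor gene, the count was 656 in MLEwt and 148 in MLEdel. For RpS6, a protein of the small ribosomal subunit, it was 626 and 182. CG1486, CG14442 and Amun had fold enrichments of 15.2, 14.3 and 14.0 in MLEwt against 3.69, 3.43 and 3.82 in MLEdel.

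The Hr4 member differed from the other strong gene-body peaks. Hr4 encodes a nuclear receptor of the ecdysone response, and the peak is a narrow one of 528 bp in an intron (chrX:1952886-1953413). It had 612 fragments in MLEwt and 1179 in MLEdel, fold enrichments of 14.0 and 25.9 (ratio 1.85, counting interval 1.68 to 2.05). No MSL1 or MSL2 peak of MLEdel overlapped it. It is also the single gene-body member with an MLEwt fold enrichment of at least 8 that was higher in MLEdel, out of 88.

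Promoter members were narrow, with a median width of 592.5 bp, and their median fold enrichment was 3.55 in MLEwt and 4.37 in MLEdel. The peak upstream of Rala, a gene for a Ras-like GTPase (chrX:3719345-3720584), was the strongest member in MLEwt, with 699 fragments and a fold enrichment of 15.96. In MLEdel it had 1154 fragments and a fold enrichment of 25.4. The peak upstream of N, the Notch receptor gene (chrX:3134564-3135110), had 286 fragments in MLEwt and 534 in MLEdel (fold enrichment 6.55 and 11.8). At Sxl, which encodes the splicing regulator of sex determination (chrX:7097874-7100790), the values were 256 and 437 fragments. Pits had fold enrichments of 4.56 and 8.79, and CG4293 of 5.86 and 10.3, the last chosen after its values were seen.

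The promoter class divided further by the side of the start. In 33 of the 44, the summit lay upstream of the nearest start, and 26 of these 33 were higher in MLEdel (median ratio 1.44, 1.22 to 1.68). In the other 11, at or downstream of the start, 4 were higher (0.726, 0.484 to 1.40). Among the 49 lost promoter peaks 22 lay upstream (44.9%), against 75.0% of the members. Starts on both strands were found within 500 bp of 12 of the 44 promoter members (27.3%, 16.3 to 41.8), of 2 of 49 lost promoter peaks (4.08%, 1.13 to 13.7) and of 20.8% of the starts of X protein-coding genes. In 4 of the 44 the nearest start belonged to a gene that does not code for protein.

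The 20 members outside protein-coding genes and promoters were narrower still, with a median width of 354 bp, and had a median fold enrichment of 3.32 in MLEwt and 5.24 in MLEdel. The strongest had cib, an actin-binding beta-thymosin gene, as the nearest start (chrX:4104543-4106298). It had 520 fragments in MLEwt and 963 in MLEdel (fold enrichment 11.9 and 21.2). A peak with its nearest start at snoRNA:Psi28S-3342 (chrX:5524452-5524856) had 353 and 522 fragments (8.07 and 11.5). The 2 that were lower in MLEdel lay within 2 kb of each other, both in lncRNA:CR44619, one of them the peak with the GA repeat (146 and 100 fragments).

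The same ratios were also grouped by the annotated feature under the summit. Features and classes overlap, so this grouping is no separate evidence. Of 135 summits in coding exons, 3 were higher in MLEdel, with a median ratio of 0.304 (0.285 to 0.324). Of 41 intergenic summits, 38 were higher, with a median of 1.56 (1.40 to 1.76). Introns lay between, with 14 of 22 higher and a median of 1.13 (0.736 to 1.57), an interval that includes 1. Base composition moved with these classes. The median GC content of the 201 bp around the summit was 59.2% in gene bodies, 48.3% at promoters and 43.8% elsewhere. Its part in the ratios was not tested.

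The share of MSL3-only peaks that were kept differed between positions also among peaks of like strength. In all, 22.0% of gene-body peaks were kept (153 of 695, 19.1 to 25.2), 47.3% of promoter peaks (44 of 93, 37.5 to 57.4) and 66.7% of the others (20 of 30, 48.8 to 80.8). Among peaks with an MLEwt fold enrichment of 2 to 4, 12 of 291 gene-body peaks were kept (4.12%, 2.37 to 7.07), against 27 of 71 promoter peaks (38.0%, 27.6 to 49.7). Between 4 and 8 the shares were 53 of 293 (18.1%, 14.1 to 22.9) and 16 of 21 (76.2%, 54.9 to 89.4). At 8 or more, 88 of 111 gene-body peaks were kept (79.3%, 70.8 to 85.8), and 1 promoter peak existed. A gene-body peak was thus listed in MLEdel mostly where it had been strong in MLEwt. Since a weak peak can be kept only if it does not fall below the limit of the MLEdel list, ratios among kept weak peaks are biased upward. The median ratio of the 12 kept gene-body peaks with a fold enrichment of 2 to 4 was 1.09, and that of the 27 such promoter peaks 1.40. Between 4 and 8 it was 0.373 in 53 gene-body peaks, 5 of them higher in MLEdel. In the 16 promoter peaks of that strength it was 1.22, with 9 of them higher.

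**Figure D2:**
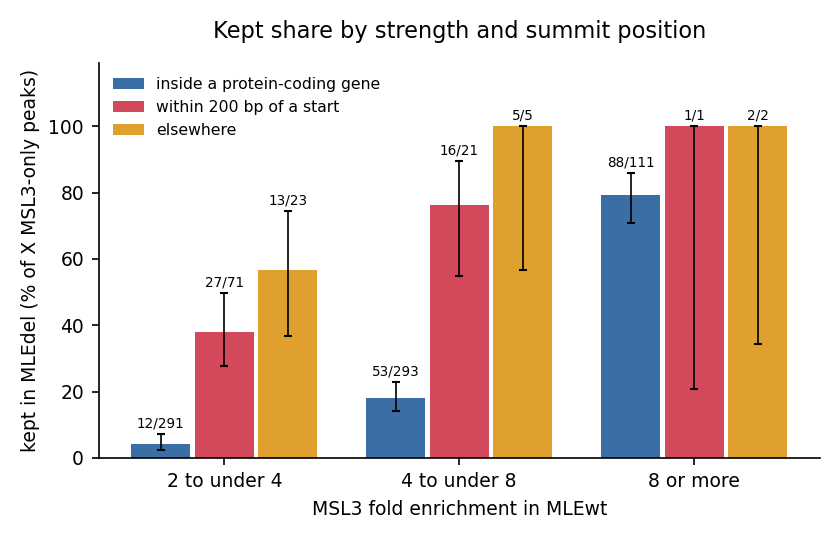
Share of X MSL3-only peaks of MLEwt that overlapped an MLEdel MSL3 peak (vertical axis, %), by MLEwt fold enrichment and summit position, with 95% Wilson intervals. From 2 to 4 the gene-body share is 4.12% and the promoter share 38.0%, and at 8 or more the gene-body share is 79.3%.

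What was left of a member in MLEdel was often a part of it. The 217 members covered 714.1 kb, of which MLEdel MSL3 peaks covered 42.3%. This compares with 62.4% of the length of kept peaks with MSL1 or MSL2. The median member was covered to 50.8% (44.1 to 58.7), with 11 wholly covered and 7 covered to under 10%. Broad members held short remnants. The widest, 14222 bp over Ocrl, a phosphoinositide phosphatase gene, and its neighbours (chrX:1916226-1930447), was covered to 2.78%, and its fold enrichment was 9.58 in MLEwt and 3.19 in MLEdel. G9a, a histone methyltransferase gene, was covered to 29.98% of 11312 bp and Zdhhc8, a palmitoyltransferase gene, to 14.7% of 10664 bp. Rbcn-3A, a regulator of the vacuolar ATPase, was covered to 76.4% of 13700 bp, and exd, a homeodomain cofactor gene, to 58.3% of 11001 bp. A single MLEdel peak lay in 180 members, 2 in 31, 3 in 4 and 4 in 2. The 2 with 4 peaks were over Amun and over hop, the Janus kinase gene. Dora, CG14232 and exd were among those with 3.

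**Figure D3:**
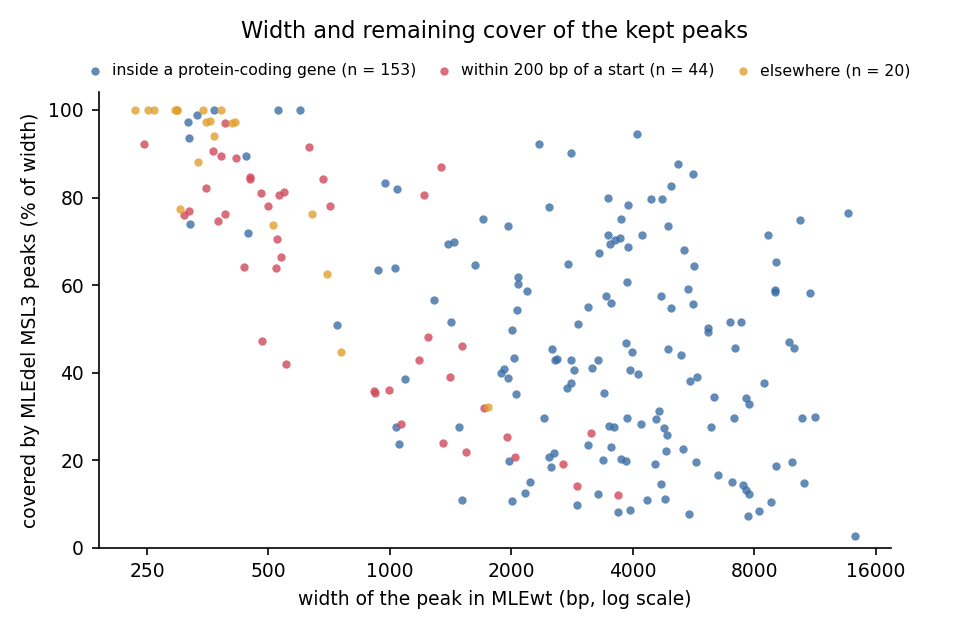
Width of each kept peak in MLEwt (horizontal axis, bp, log scale) against the part of it covered by MLEdel MSL3 peaks (vertical axis, % of width), coloured by summit position. Members outside protein-coding genes and promoters have a median cover of 97.2%, gene-body members 44.1%, and the widest, 14222 bp, has 2.78%.

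Along genes, the remnants lay in the middle and second part of the transcribed region. For the 146 gene-body members with a summit in a single protein-coding gene, that gene was divided into 10 equal parts from start to end. In MLEwt the mean cover by the member rose from 32.9% of the first part to 75.3% of the ninth and was 71.8% in the last. In MLEdel the cover was 6.84% in the first part, highest in the seventh at 57.0%, and 20.7% in the last. Listed MSL3 thus covered less of both ends of the gene in MLEdel than in MLEwt, and the cover of the last part differed by more than that of the seventh. In the 177 kept peaks with MSL1 or MSL2 the last part had 85.2% in MLEwt and 52.5% in MLEdel. Of the 163 member summits in a single gene, promoter members included, 71 lay in its last part when it was divided into 3 (43.6%, 36.2 to 51.2), 60 in the middle part and 32 in the first. The share was 47.3% in lost peaks and 50.8% in kept peaks with MSL1 or MSL2, within the members' interval.

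**Figure D4:**
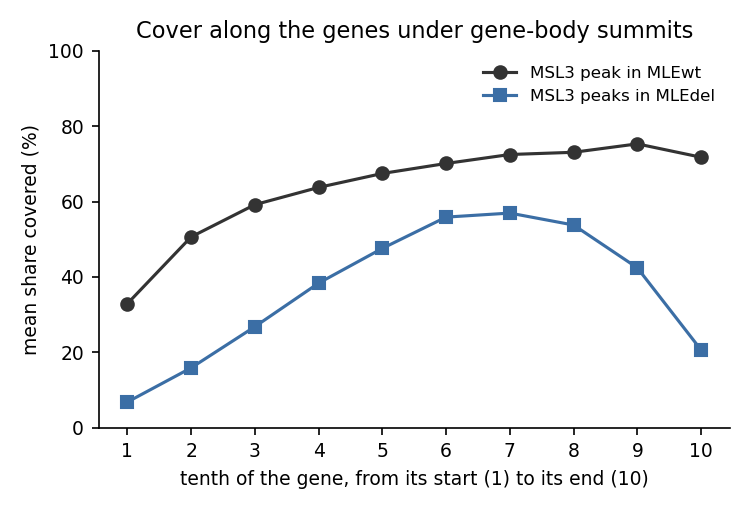
Mean share of each of 10 equal parts of the gene covered by MSL3 peaks (vertical axis, %) from the start to the end of the gene (horizontal axis) for the 146 gene-body members in a single gene, with the member's own peak in MLEwt (circles) and all MSL3 peaks of MLEdel (squares). The members' cover in MLEdel is highest in the seventh part, at 57.0%, and 6.84% in the first.

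MSL1, which was listed at no member in MLEwt by the rule, was listed at 16 of the 217 in MLEdel (7.37%, 4.59 to 11.6). This is below the 15.2% of all 1030 X MSL3 peaks, of which 157 had one, 137 of them kept peaks with MSL1 or MSL2. Of the 601 lost peaks 1 had MSL1 in MLEdel. The MLEdel list of MSL1 is the longer one, with 577 peaks against 293, of which 377 and 42 were autosomal. The 16 comprised 8 of 44 promoter members (18.2%, 9.51 to 32.0), 4 of 153 gene-body members (2.61%, 1.02 to 6.53) and 4 of 20 others (20.0%, 8.07 to 41.6). On autosomes, 133 of 446 kept MSL3 promoter peaks had an MSL1 peak in MLEdel (29.8%), and 197 of all 1040 kept peaks (18.9%). The highest MSL1 fold enrichments in MLEdel were 7.93 near Mur11Da, which had 207 fragments, 6.90 at Axs with 180, and 5.07 at an intergenic peak (chrX:52542-52835) with 132. The Rala promoter had 4.27 with 111 fragments, and the cib peak 2.82 with 73. The others, whose nearest starts were those of snoRNA:Psi28S-3342, Ocrl, stx, CG46311, CG3342, CG1677, CG2059, Dhdds, mys, Nep1 and Pits, lay between 2.90 and 3.81. Near Mur11Da, where the MSL3 peak is 260 bp long (chrX:12967368-12967627), MSL3 itself had 136 fragments in MLEwt and 311 in MLEdel.

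MSL2 was listed at 1 of the 217 in MLEdel (0.461%, 0.0814 to 2.56), against 5.44% of all X MSL3 peaks. All X MSL3 peaks include those with MSL1 or MSL2 in MLEwt, which the rule leaves out of the members. A lower share is thus partly built in, and nothing is read from it. The member with MSL2 was the intergenic peak close to the end of the chromosome (chrX:52542-52835). It had an MSL2 fold enrichment of 4.85, rank 15 of the 92 peaks of that list, with MSL1 at 5.07 and MSL3 at 3.33 in MLEwt and 5.53 in MLEdel. It was the single member at which all 3 proteins were listed in MLEdel.

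Distances to MSL2 were above 0 by the rule, both for members and for lost peaks. The median distance to the nearest MLEwt MSL2 peak was 11975 bp (9429 to 15597), and that of the lost peaks 13962 bp (12747 to 15802), intervals that overlap. The members' median was 6697 bp when only summits within 250 bp counted as shared, for MSL1 and MSL2 too. That setting admits MSL3 peaks that overlap MSL1 or MSL2 but have distant summits. With a global IDR of 0.001 or less in all lists the median was 19337 bp. An MSL2 peak lay within 1000 bp of 9 members and within 5000 bp of 59, and 12 had none within 100 kb. Gene-body members were closer, at a median of 9653 bp, than promoter members, at 19050 bp, though the intervals (7032 to 12480, and 11703 to 30362) overlap slightly. The farthest was the N promoter, at 398169 bp. The 2 next, 271033 and 247007 bp away, had 2SrRNA:CR45864 as the closest start, at 80570 and 56429 bp. They had 140 and 122 fragments in MLEwt. In 88 members the next member was less than 10 kb away.

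GA repeats, the sequence that CLAMP binds, were few at the members and along X. GAGAGAGA or its complement TCTCTCTC was found within 100 bp of the summit in 1 of 217 (0.461%, 0.0814 to 2.56), against 23 of 601 lost peaks (3.83%) and 1.54% of windows of this length tiled along X. The members' interval includes the share of the tiled windows. Within 250 bp of the summit 3 members had one (1.38%, 0.471 to 3.99). None of 44 promoter members had one, which allows a share of up to 6.82%, whereas 6 of 49 lost promoter peaks did (12.2%, 5.73 to 24.2), with 2.63% at starts of X genes. None of 153 gene-body members had one either, a share of up to 1.96%. The promoter limit lies above the share at starts, and the gene-body limit above that of tiled windows. The CA repeat CACACACA or TGTGTGTG was found in 6 members (2.76%) and in 5.77% of the tiled windows, and in 2 of 44 kept and 7 of 49 lost promoter peaks. The absence of these letters from a window says nothing of where CLAMP binds.

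The core of Motif 1, an element of housekeeping promoters bound by the zinc-finger protein M1BP, was found at promoter members and outside protein-coding genes. GGTCACAC or GTGTGACC was found at 8 of 44 promoter members (18.2%, 9.51 to 32.0), at 2 of 20 outside members and at 0 of 153 gene-body members, a share of up to 1.96%. None of the 49 lost promoter peaks had it, which allows up to 6.12%. It occurred in 5.83% of windows at starts of X genes, in 0.486% of those tiled along X, and in 43 of 446 kept autosomal promoter peaks (9.64%). The 10 members were those of N, cib, Sxl, mys (an integrin beta subunit), RhoU, Dlic (a dynein light intermediate chain), CG46311, Top1 (topoisomerase), Usp2 and prage. Fold enrichment was higher in MLEdel at 9 of these 10, and lower at Dlic, with 308 and 153 fragments. All 10 were promoter or outside members, most of which were higher in MLEdel in any case. No link with the motif is read from the count. DRE, the palindrome TATCGATA, was found at 3 members, RpS15Aa, RpL37-1 and Axs, all promoter members (6.82%), against 9.44% of starts of X genes. The shorter CGATA or TATCG, which is also contained in DRE, was found at 24 of 44 promoter members (54.5%, 40.1 to 68.3) and 13 of 49 lost ones (26.5%, 16.2 to 40.3), with 42.5% at starts. Motif 1, CGATA and 4 other words, 6 in all, were searched after the members had been seen, and their shares are a description. Of the other 4, GAGAG (or CTCTC) occurred at 36.4% of promoter members, 44.9% of lost promoter peaks and 24.6% of starts, and at 24.2% of gene-body members, 24.5% of lost gene-body peaks and 21.5% of tiled windows. In the same order, the palindrome CAGCTG occurred at 11.4%, 16.3% and 11.8%, and at 23.5%, 25.5% and 8.50%. The word GGTGGT (or ACCACC) occurred at 6.82%, 8.16% and 7.24%, and at 15.7%, 19.4% and 9.49%. The palindrome GGCGCC occurred at 11.4%, 2.04% and 3.82%, and at 13.1%, 10.9% and 3.64%.

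**Figure D5:**
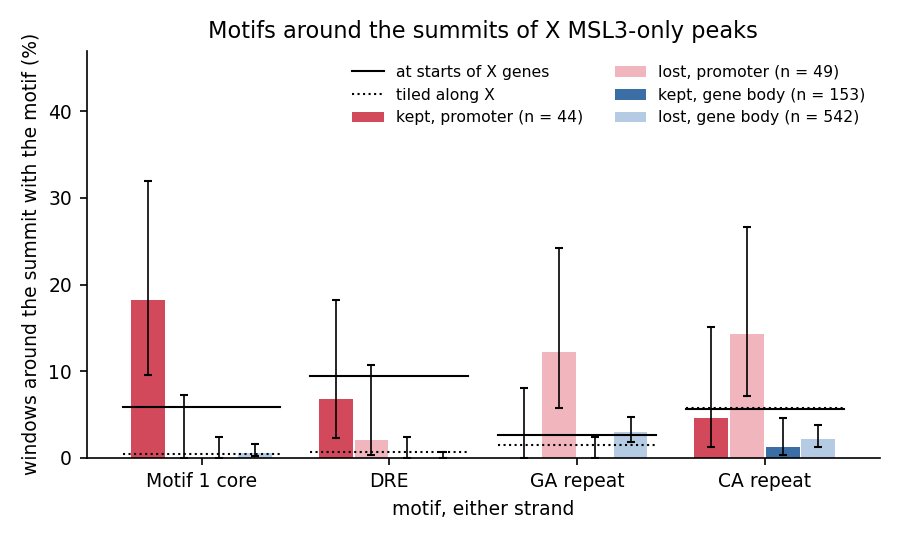
Share of 201-bp windows around the summit that hold each motif on either strand (vertical axis, %), for kept and lost promoter and gene-body peaks, with 95% Wilson intervals, and for windows at starts of X genes (solid line) and tiled along X (dotted line). Motif 1 is at 8 of 44 kept and 0 of 49 lost promoter peaks, and the GA repeat at 0 and 6.

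Members overlapped 319 of 2196 protein-coding genes on X (14.5%). Lost peaks overlapped 646. Among cytosolic ribosomal protein genes members overlapped 8 of 15 and lost peaks 7, and among mitochondrial ribosomal protein genes they overlapped 4 and 3 of 11. The members' counts were 2 of 6 for the proteasome, 2 of 7 for translation initiation factors, 1 of 4 for RNA polymerase II and general factors, 1 of 2 for the vacuolar ATPase and 0 of 4 for nuclear pore genes, all 4 of which lay under kept peaks with MSL1 or MSL2. Lost peaks overlapped 0, 2, 2, 0 and 0 of these. Of genes of few cell types members overlapped 1 of 15 cytochrome P450 genes, Cyp4d14, none of 4 cuticle genes, none of 20 odorant receptor, gustatory receptor and odorant-binding genes and none of 6 chorion genes, where lost peaks overlapped 1, 0, 2 and 1. These lists are short, and no difference between members and lost peaks is read from the counts. Overlap counts favour long genes and genes in dense regions.

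The ribosomal protein genes showed both behaviours of the members, at times within the same gene. RpL7A had 2 members. The one over its body (chrX:6528848-6532592) had fold enrichments of 7.25 in MLEwt and 2.35 in MLEdel. The one at its promoter (chrX:6533126-6533605) had 2.78 and 6.35. The peak whose summit is in a coding exon of RpL17 had 3.85 and 9.07, a ratio of 2.35 that was the highest of all 217. RpS14a lay under a promoter member, that of Dhdds, with 3.67 and 6.86, and RpS15Aa had 2.60 and 3.65. RpL37-1, with a promoter member, had 2.99 and 2.50. RpS5a carried 3 members classed as promoter peaks, and all were lower in MLEdel, with 5.20 and 2.20, 6.34 and 2.50, and 2.49 and 2.22. The member over RpL36 had its summit in the neighbouring gene Hinfp, with 6.80 and 2.22. Other members over genes of these families behaved as most gene-body members did. The proteasome genes Rpt3 and Prosalpha4 had 8.48 and 2.63, and 5.70 and 2.29. Polr2A, the largest subunit of RNA polymerase II, had 7.16 and 2.48 over its own body. The mitochondrial gene mRpL33, with a promoter member, had 2.99 in MLEwt and 4.31 in MLEdel, while mRpS30, with a gene-body member, had 6.25 and 2.24.

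Kept autosomal MSL3 peaks resembled the promoter and outside members more than the gene-body ones. The 1040 autosomal peaks had a median width of 673 bp, fold enrichments of 3.27 in MLEwt and 3.22 in MLEdel, and a median ratio of 0.968 (0.947 to 1.01). Their median background in MLEwt was 57.0 fragments, against 42.8 at the members, so like fold enrichments stand for unlike counts. In 446 of the autosomal peaks the summit was at a promoter (42.9%) and in 420 in a gene body (40.4%), against 20.3% and 70.5% of the members. Their median ratio was 1.09 at promoters, 0.854 in gene bodies and 1.53 elsewhere. The order of the 3 classes was thus the same on autosomes as among the members, but the gene-body ratio was nearer to 1 there than the members' 0.315. Kept X peaks with MSL1 or MSL2, 187 of 198 of them in gene bodies, had a median ratio of 0.313 (0.298 to 0.328), an interval that overlaps that of the gene-body members. In that group the median was 0.394 at 7 promoter summits (highest 0.726) and 0.674 at 4 summits elsewhere. Both medians were below 1, unlike those of the members at these positions.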

How the data were processed

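ChIP-seq of MSL1, MSL2 and MSL3 was made by the study's authors from adult males of 2 lines, with 13 libraries (12 with antibodies and 1 preimmune, whose values are not used here). The preimmune library is labelled wt, and none is listed for MLEdel. The study's methods do not name the control used in peak calling, so the source of the MLEdel background is not known here. Reads were trimmed with cutadapt, aligned to dm6 with Bowtie2, and peaks were called with MACS2 and compared between replicates by IDR, per the labels and the study's methods. The 6 deposited lists, 1 per protein and line, give peak positions, the fold enrichment ratio and the −log10 p-value and −log10 q-value of each peak, and −log10 IDR. MSL1 and MSL3 lists were limited to a global IDR of 0.01, and MSL2 lists to 0.05. In each list, fold enrichment and the first set of p-values were solved for the number of fragments at the summit, a whole number within 0.01 in all peaks, so fold enrichment belongs to the first of the 2 peak sets in each list. Library totals are not given in the sources used here.

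Overlaps needed 1 bp. A summit was a promoter summit within 200 bp of any transcript start, otherwise a gene-body summit inside a protein-coding gene, otherwise outside (Ensembl release 115). Motifs were searched within 100 bp of the summit on dm6. Shares have 95% Wilson intervals, medians order-statistic intervals and ratios of fold enrichment counting intervals. All cover counting error only, and no p-value was computed. Calculations were run with SciPy 1.17.1, pandas 2.3.3 and NumPy 2.4.6 under Python 3.11.15, plots were drawn with matplotlib 3.10.9. On simulated data, all 11 steps with an exact answer gave it, the 95% intervals of 3 kinds held the true value in 95 to 96.3% of 2000 draws, and fold enrichment that did not belong to the p-value came out whole in 2.15% of 2000 simulated peaks. Named members were the 10 highest in MLEwt, the 5 widest, the 5 with most MLEdel peaks, the 5 highest in MLEdel, those nearest the limits of the rule, the 3 farthest from MSL2, those with MSL1 or MSL2 in MLEdel, and those over the gene families listed. A few peaks that this rule names are not reported here. The members, lists, families, classes and named peaks were chosen with earlier results of these data known.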

Additional observations from a re-analysis of the deposited data

How the results depend on the processing

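Of 134 alternative values over 17 results, 19 left the interval of the main value (for a count, a factor of 1.5). A reversal could be called only for alternatives of the fold enrichment ratios by summit position, and none of these crossed 1. A cut at −log10 q of 3 could change nothing, since the lowest value in any list was 5.44. With summits within 250 bp as the measure of sharing, for MSL1 and MSL2 too, MSL3-only peaks numbered 916 and members 249. That setting admits MSL3 peaks that overlap MSL1 or MSL2 but have distant summits. The median distance to MSL2 was then 6697 bp, the median width 3513 bp and the median MLEwt fold enrichment 8.85. With a global IDR of 0.001 or less in all lists these were 19337 bp, 3440 bp and 8.85, and the share with a GA repeat was 0%. Merging MLEwt MSL3 peaks under 1 kb apart gave 131 members, a kept share of 30.6%, a 3′ share of 54.3%, a distance of 19454 bp and a median cover of 42.1%. A transcription start lay within 200 bp of 71.4% of the members, within 1000 bp of 83.4%, and within 200 bp of the summit in 20.3%. With 3 GA units in place of 4 the GA share was 6.91%, and with 5 units 0%. Among alternatives chosen after the data had been seen, the ratio of −log10 p in place of fold enrichment was 1.75 at promoters, 0.0997 in gene bodies and 2.25 elsewhere, on the same side of 1 as the fold enrichment ratios. The cause of these changes was not tested. Leaving out a replicate was not possible, since each list joins both libraries. No paired analysis was possible because the sources do not say whether the 2 peak sets of a list are the replicates. Precision is limited by the number of peaks and by fragments at weak summits, from 96 per MLEwt peak, and binding below the limits of the lists is not seen.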
